A study of Mus musculus with 3 samples.

Results

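The sites described here are meiotic break hotspots that the humanized Prdm9 allele of a hybrid mouse set up on both homologues alike. They were taken from the deposited table of DMC1 hotspots as the autosomal sites that the authors assigned to the humanized allele (HUM), that did not overlap a PRDM9-independent H3K4me3 peak, and whose B6 share lay from 0.3 to 0.7 for both DMC1 and H3K4me3. The B6 share of a mark is the part of a site's signal that the authors placed on the C57BL/6J (B6) homologue, so a value of 0.5 means equal use. This gave 3160 symmetric HUM sites, 12.9% of the 24586 sites in the table and 40.4% of the 7814 autosomal HUM sites off such peaks that had both shares (exact 95% interval 39.3% to 41.5%). The animals were F1 males of C57BL/6J crossed with CAST/EiJ (CAST), with 1 humanized and 1 CAST copy of Prdm9, and whole testis was used. DMC1 ChIP-seq came from 1 male of 10 weeks. The H3K4me3 ChIP-seq library of the series, on nuclease-digested chromatin, came from an adult male whose age in weeks is not given. The H3K4me3 reads behind the values are credited to Li and colleagues, and whether they are those of this library is not stated. The series has 1 library per assay and no control genotype, so nothing below has a replicate check and no test was made. Depth per library is unknown. Differences are given with their spread over the 19 autosomes, which share the same libraries and are not replicates.

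PRDM9 is a zinc-finger protein of early meiosis that binds DNA through its finger array and methylates the histone H3 tails of nearby nucleosomes, among them lysine 4. Double-strand breaks are then made at a fraction of these marked places, and the recombinase DMC1 coats the resected single strands while they search for the homologous chromosome. DMC1 signal thus depends both on how often a break is made and on how long it stays under repair. The humanized allele carries the finger array of human PRDM9, whose targets differ from those of the mouse arrays. A site that PRDM9 marks on both homologues has a marked partner at the same place, which is known from other hybrids to go with faster repair of the break.

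Sequences were at hand for promoter windows, from 250 bases before to 50 after a gene's start (RefSeq, GRCm38.p6, which is the same build as mm10). The centres of 6 symmetric HUM sites fell inside such a window, which let the human PRDM9 motif be looked for beside a measured site. The 4 windows with the closest matches are printed, and the other 2, with weaker matches, are given by their values. The 13-base human PRDM9 hotspot motif, which has 8 fixed bases, was searched on both strands. Capitals mark the best match in each window, written on the strand of the window, so a match on the opposite strand appears as its reverse complement.

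The site on chromosome 17 at 25518412 had DMC1 267, H3K4me3 38.0 and B6 shares of 0.487 for DMC1 and 0.476 for H3K4me3. Its window is that of Gm33727, chr17:25518339-25518638, plus strand. All 8 fixed bases were matched, on the opposite strand, and the middle of the match lay 7 bp from the DMC1 centre.
Gm33727: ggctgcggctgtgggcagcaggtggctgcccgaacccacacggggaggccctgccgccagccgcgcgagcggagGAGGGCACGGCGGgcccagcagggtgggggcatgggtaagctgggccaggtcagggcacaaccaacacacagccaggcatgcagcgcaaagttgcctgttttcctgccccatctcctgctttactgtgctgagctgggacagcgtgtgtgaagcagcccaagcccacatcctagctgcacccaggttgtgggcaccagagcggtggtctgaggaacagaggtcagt

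The site on chromosome 1 at 130940260 was weak, with DMC1 16.1, H3K4me3 5.53 and B6 shares of 0.417 and 0.529. It lay in the window of Il19, which encodes a cytokine, at chr1:130940066-130940365, minus strand. The best match had 7 of the 8 fixed bases, on the opposite strand of the window, with its middle 8 bp from the centre.
Il19: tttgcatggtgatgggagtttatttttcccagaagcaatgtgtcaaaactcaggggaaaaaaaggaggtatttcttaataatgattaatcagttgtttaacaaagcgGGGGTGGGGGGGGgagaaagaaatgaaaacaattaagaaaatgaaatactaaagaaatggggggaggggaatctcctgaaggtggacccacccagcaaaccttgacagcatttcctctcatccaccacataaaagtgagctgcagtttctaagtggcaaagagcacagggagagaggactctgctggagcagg

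The site on chromosome 12 at 91683369 had DMC1 70.7, H3K4me3 13.4 and B6 shares of 0.595 and 0.549. Its window is that of Gm16876, chr12:91683148-91683447, plus strand. The best match had 7 fixed bases, on the strand of the window, 24 bp from the centre.
Gm16876: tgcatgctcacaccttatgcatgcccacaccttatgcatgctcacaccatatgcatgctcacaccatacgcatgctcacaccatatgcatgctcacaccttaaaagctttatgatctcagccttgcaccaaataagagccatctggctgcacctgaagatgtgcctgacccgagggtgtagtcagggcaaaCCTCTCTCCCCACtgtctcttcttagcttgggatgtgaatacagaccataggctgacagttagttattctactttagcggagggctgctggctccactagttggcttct

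The site on chromosome 9 at 41805556 had DMC1 261, H3K4me3 49.9 and nearly equal B6 shares of 0.485 and 0.491. It lay in the window of Gm35940, chr9:41805384-41805683, plus strand, where the best match had 7 fixed bases on the opposite strand, 55 bp from the centre.
Gm35940: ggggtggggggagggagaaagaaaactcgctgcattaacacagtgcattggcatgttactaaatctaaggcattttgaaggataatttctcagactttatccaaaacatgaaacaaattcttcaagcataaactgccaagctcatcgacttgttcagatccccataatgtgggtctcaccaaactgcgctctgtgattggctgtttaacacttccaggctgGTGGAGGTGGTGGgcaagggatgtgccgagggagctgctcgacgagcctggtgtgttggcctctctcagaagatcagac

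The windows of the remaining pair, LOC108168979 on chromosome 4 (site at 129354104, DMC1 499, H3K4me3 41.3) and Gm32702 on chromosome 13 (site at 95763716, DMC1 38.0, H3K4me3 3.22), had best matches of 6 fixed bases, 103 and 136 bp from the centre. A full match was thus present in 1 of 6 windows at symmetric HUM sites, in 2 of 8 at other HUM sites with both shares, and in 0 of 12 at symmetric CAST sites, for which the exact 95% upper limit is 26.5%. Of all 31396 listed autosomal promoter windows, 6.35% held a full match. At least 7 fixed bases were matched in 4 of 6, 7 of 8 and 5 of 12 windows, against 50.8% of all. With windows within 250 bp of a site centre added, a distance chosen after the data were seen, 12 of 16 windows at symmetric HUM sites (75%), 17 of 24 at other HUM sites and 10 of 26 at symmetric CAST sites (38.5%) matched at least 7. Full matches in that wider set were in 1 of 16 windows at symmetric HUM sites (6.25%), 2 of 24 at other HUM sites (8.33%) and 0 of 26 at symmetric CAST sites, so the full match at symmetric HUM sites was near its share of all promoter windows. These are matches of letters in the B6 reference, in windows chosen by the reach of the promoter table, and the counts are small.

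The steps of the rule show where HUM sites left the set. Of 9281 autosomal HUM sites, 8605 lay off PRDM9-independent peaks, and 791 of these lacked a share for at least 1 mark. Of the 7814 with both shares, 4471 had an H3K4me3 share in the window and 3312 a DMC1 share in the window. A site with a balanced DMC1 share nearly always had a balanced H3K4me3 share, in 95.4% of cases (interval 94.6% to 96.1%), while the reverse held in 70.7% (69.3% to 72.0%). The H3K4me3-balanced sites that failed on DMC1 did so more often toward the CAST homologue, with 857 under 0.3 and 454 over 0.7. Sites assigned to the CAST allele of Prdm9 and picked by the same rule, the symmetric CAST sites, numbered 5016, or 47.8% of their 10491 (46.9% to 48.8%), and the symmetric percentage was lower for HUM than for CAST sites on 18 of 19 autosomes.

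Membership was commoner among strongly marked sites. In the lowest 25% of HUM sites by H3K4me3, 25.5% were symmetric (exact interval 23.6% to 27.5%), in the next 33.5%, then 39.3%, and in the highest 63.5% (61.3% to 65.6%). By DMC1 the gradient was shallower, from 36.3% in the lowest 25% to 48.6% in the highest. Per autosome the symmetric percentage ran from 35.1% on chromosome 8 to 46.9% on chromosome 15. The difference between the shares of the marks varied more at weakly marked sites, with values given below, and the part of this in the gradient was not tested.

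Symmetric HUM sites ranged widely in DMC1, with a lowest value of 7.54, a median of 68.0 (quartiles 29.1 and 167) and a highest of 1202, in the authors' units. H3K4me3 enrichment had a median of 14.2 (quartiles 7.86 and 25.5) and ran from 1.21 to 90.8. The sites held 42.3% of the summed DMC1 and 41.2% of the summed H3K4me3 of all autosomal HUM sites, while being 34.0% of them by number. Among the 2159 autosomal sites off PRDM9-independent peaks in the top 10% of H3K4me3, 20.8% were symmetric HUM sites, more than their 14.6% of all such sites. Among the top 10% by DMC1 they were 11.8%, less than their number would give. So, against all such sites, the set was over-represented at the top of H3K4me3 and under-represented at the top of DMC1. Neither was particular to it. Symmetric CAST sites, 23.2% of such sites, were 39.6% of the top by H3K4me3 and 27.7% by DMC1. Partly skewed HUM sites (defined below), 16.5% of such sites, were 5.14% of the top by H3K4me3 and 4.03% by DMC1. One-homologue HUM sites (also below), 5.07% of such sites, were 0.695% and 5.14%.

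DMC1 followed H3K4me3 closely across the symmetric HUM sites. The Spearman correlation was 0.804 over the 3160 sites and 0.806 over the symmetric CAST sites, and on single autosomes it lay between 0.751 (chromosome 19) and 0.843 (chromosome 18). It was 0.669 at partly skewed HUM sites and 0.694 at one-homologue HUM sites, classes defined below. These values describe sites that share the same 2 libraries. From the lowest to the highest 10% of sites by H3K4me3, the median DMC1 was 18.6, 24.1, 31.2, 40.5, 58.0, 79.3, 116, 157, 225 and 321. The ratio of DMC1 to H3K4me3, which has no absolute meaning and is compared only between sites, was 5.47 in the lowest 10%, near 4 in the next 3 groups (4.07, 4.02 and 4.08) and 6.76 in the ninth, so it was higher at both ends. Every site in the table is a DMC1 peak, and sites with H3K4me3 but no DMC1 peak do not enter.

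**Figure D1:**
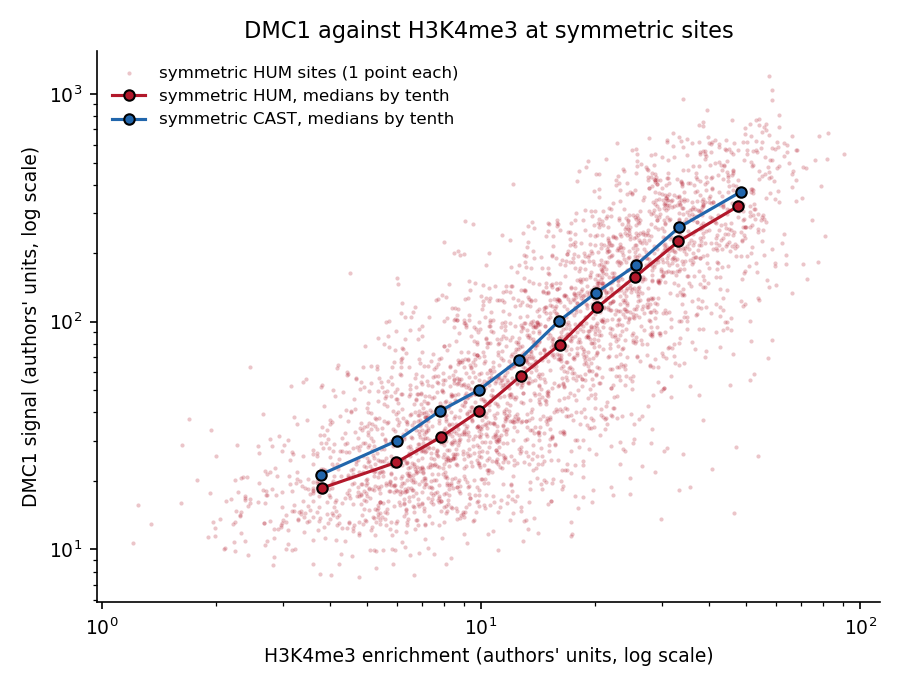
DMC1 signal against H3K4me3 enrichment, each in the authors' units on a log scale, with 1 point for each of the 3160 symmetric HUM sites; joined circles are medians in 10 groups by H3K4me3, with the same limits for both classes. The symmetric HUM medians go up to 321 in the last group and lie under the symmetric CAST medians, which reach 372, in all 10 groups.

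Compared with symmetric CAST sites, symmetric HUM sites carried less DMC1 for the H3K4me3 they had. The median ratio was 5.21 at symmetric HUM sites and 6.24 at symmetric CAST sites, or -0.26 as a log2 difference (SD over autosomes 0.091), or 1.20-fold lower. The ratio was lower on 19 of 19 autosomes, by -0.38 on chromosome 15 and by only -0.05 on chromosome 7. At matched H3K4me3 the log2 DMC1 differed by -0.25, close to the difference in the ratio. A lower ratio at HUM than at CAST sites was not particular to symmetric sites. In the one-homologue class, defined below, the median ratio was 9.93 at HUM and 14.1 at CAST sites. In the partly skewed class it was 5.76 at HUM and 7.40 at CAST sites. The median DMC1 itself was 68.0 at symmetric HUM sites and 90.9 at symmetric CAST sites, a log2 difference of -0.42 (SD over autosomes 0.245) and lower on 17 of 19 autosomes. It was -0.24 when sites in the lowest 25% of autosomal DMC1 were left out. H3K4me3 differed little, with medians of 14.2 at symmetric HUM sites and 15.5 at symmetric CAST sites. That log2 difference of -0.12 was smaller than its SD over autosomes of 0.204 and had the same sign on 13 of 19, and without those weak sites it was -0.025, so no difference in H3K4me3 beyond that spread was seen.

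**Figure D2:**
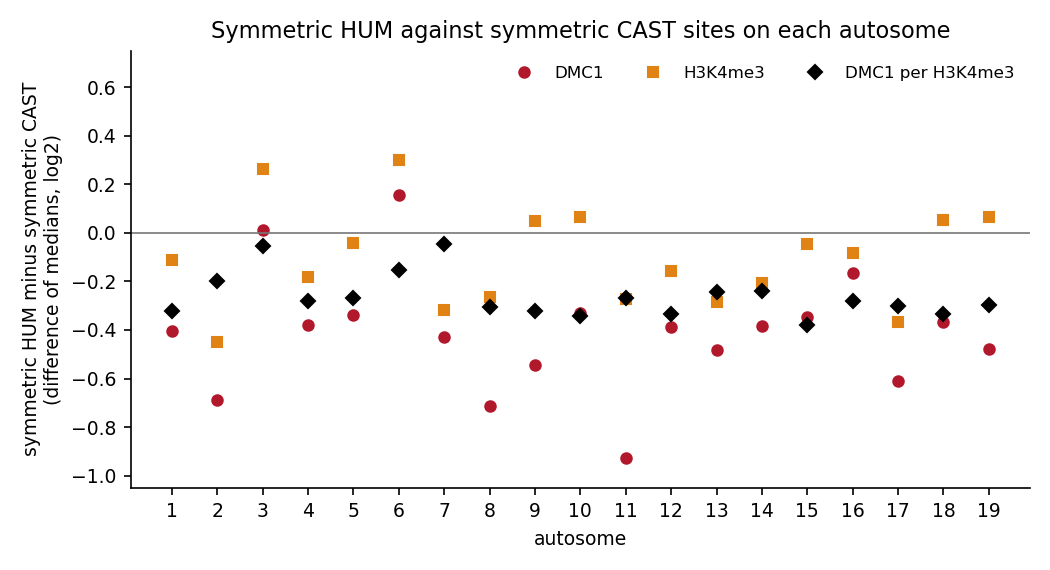
Difference of medians, symmetric HUM minus symmetric CAST sites, on the log2 scale for each of the 19 autosomes; circles are DMC1, squares H3K4me3 and diamonds the ratio of DMC1 to H3K4me3. The diamonds lie between -0.38 and -0.05, all under 0, while DMC1 ranges from -0.93 on chromosome 11 to 0.16 on chromosome 6 and H3K4me3 scatters on both sides of 0.

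Symmetric HUM sites were then set against the rest of the HUM class. A one-homologue site has both B6 shares under 0.1 or both over 0.9, and the 3559 sites that were neither are called partly skewed. The 1095 one-homologue HUM sites had a median ratio of 9.93, against which the symmetric HUM sites were 1.90-fold lower, with a log2 difference of -0.93 (SD over autosomes 0.191) and the same sign on 19 of 19 autosomes. Symmetric HUM sites had less DMC1 and more H3K4me3: median DMC1 was 68.0 at symmetric HUM sites and 105 at one-homologue HUM sites, and median H3K4me3 was 14.2 at symmetric and 11.05 at one-homologue HUM sites. With H3K4me3 matched, log2 DMC1 differed by -1.10. Taken apart, the difference was -0.72 from the 568 sites used on the B6 homologue and -1.12 from the 527 used on the CAST homologue, and each held its sign on 19 of 19 autosomes. Sites of the CAST allele showed the same direction, with a median ratio of 6.24 at symmetric and 14.1 at one-homologue sites. The classes were cut by the shares and not by the total signals. Membership still varied with total H3K4me3, as given above, so the signals of the classes are not independent of the rule. H3K4me3 values that repeat an earlier line of the table were fewer among symmetric HUM sites (37.2%) than among one-homologue HUM sites (47.5%), and without such sites the log2 difference in ratio was -0.97.

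Against the partly skewed HUM sites the difference in ratio was small and depended on where the window was drawn. Partly skewed sites were weak in both marks, with a median DMC1 of 68.0 at symmetric HUM sites and 41.5 at partly skewed sites and a median H3K4me3 of 14.2 at symmetric and 7.96 at partly skewed sites. The ratio was 5.21 at symmetric HUM sites and 5.76 at partly skewed sites, a log2 difference of -0.14 (SD over autosomes 0.124) with the same sign on 16 of 19. It was -0.22 at matched H3K4me3, -0.018 when the window was narrowed to 0.4 to 0.6 and -0.27 when it was widened to 0.2 to 0.8. Without the sites in the lowest 25% of autosomal DMC1 it was -0.26.

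**Figure D3:**
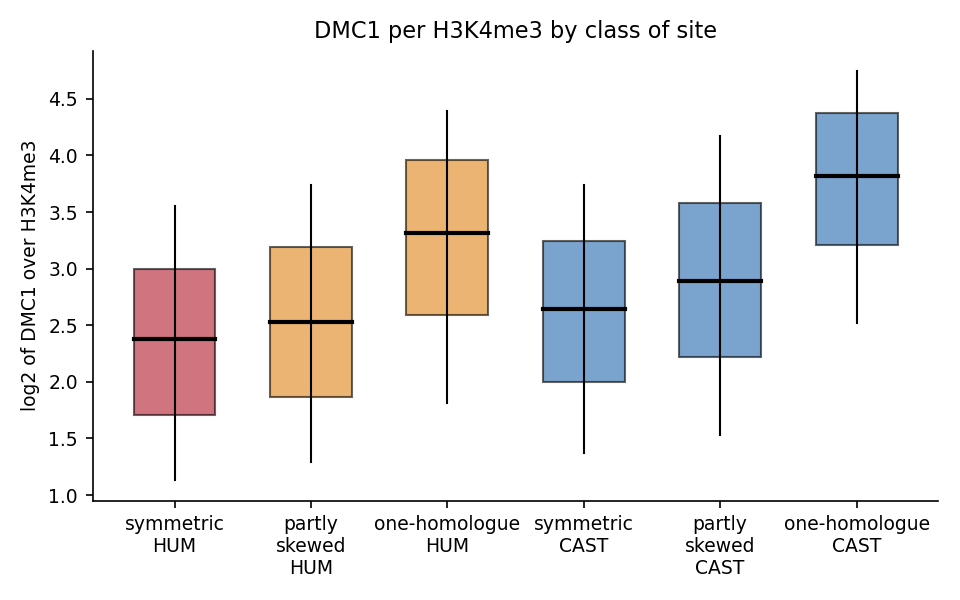
Log2 of DMC1 over H3K4me3 for 6 classes of autosomal sites off PRDM9-independent peaks; boxes run between the quartiles with the median as a thick line, and thin lines from the 10th to the 90th percentile of sites. Symmetric HUM sites have the lowest median of the 6 classes, 2.38, against 3.31 at one-homologue HUM sites and 2.64 at symmetric CAST sites.

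Called by size, 8.86% of symmetric HUM sites (280 of 3160; exact interval 7.89% to 9.91%) had a ratio at least 2-fold higher than the median autosomal site, against a background of 18.0% over all autosomal sites and 19% over those off PRDM9-independent peaks. At least 2-fold lower were 21.4% (676 sites; 19.97% to 22.9%), against a background of 19.4% over all autosomal sites and 16.2% over those off such peaks. The sites off the peaks are the closer background, since the rule removed the others, and were added after the data were seen. At symmetric CAST sites 13.4% were called higher and 14.6% lower, and at one-homologue HUM sites 39.4% were called higher and 6.30% lower. Symmetric HUM sites thus had fewer high ratios than either background and more low ratios, by a smaller margin, than either.

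Within the window, the ratio changed only slowly with the degree of skew. Sites were ordered by the larger of their 2 deviations from an equal share of 0.5. The median ratio was 5.44 at the 541 HUM sites with deviations up to 0.05, 5.39 up to 0.1, 5.12 up to 0.15 and 4.84 up to 0.2, the edge of the set. It stayed between 4.55 and 4.89 for HUM sites with deviations from 0.2 to 0.4, was 5.69 up to 0.45 and 9.20 at the 2106 sites beyond. Without matching on H3K4me3, the higher median ratio of one-sided sites thus appeared at the far end of the scale, and not next to the limit of 0.2. H3K4me3 fell along most of this scale, with medians of 18.2, 16.2, 13.3 and 11.4 in the 4 groups of symmetric HUM sites. It went down to 6.49 at deviations from 0.4 to 0.45 and was 9.50 beyond. The ratio itself varied with H3K4me3, as given above, so these medians do not show where it changes at like H3K4me3.

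**Figure D4:**
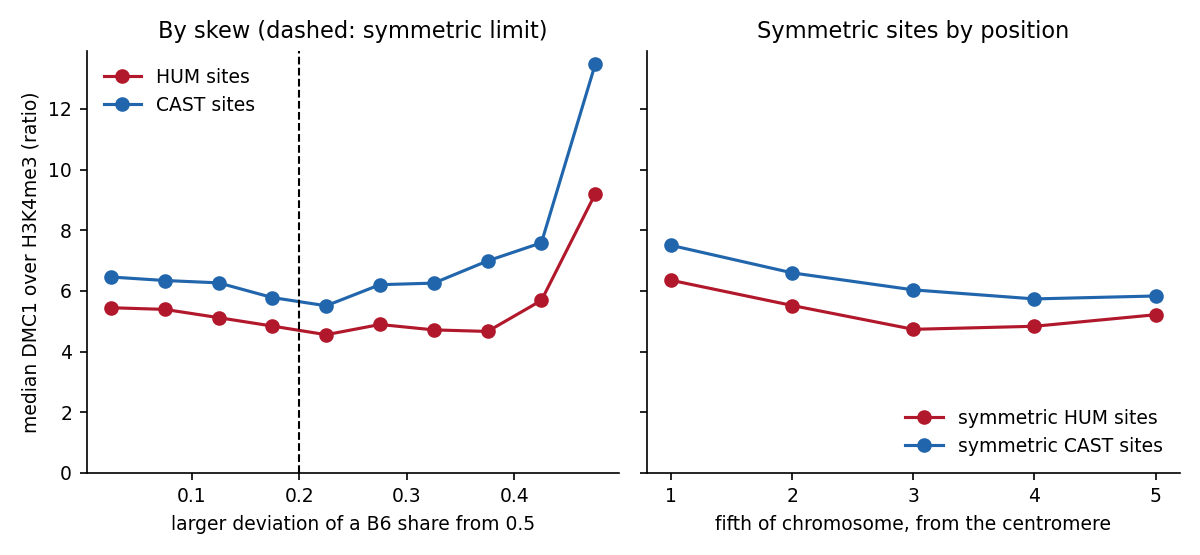
Median ratio of DMC1 to H3K4me3, on a linear axis from 0, for HUM and CAST sites by the larger deviation of a B6 share from 0.5 (left; sites left of the dashed line are the symmetric ones) and for symmetric sites by position along the chromosome in 5 equal parts (right). HUM sites stay between 4.55 and 5.69 up to a deviation of 0.45 and reach 9.20 beyond, and symmetric HUM sites have 6.35 in the part next to the centromere.

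The balance between the homologues was not the same for the marks. The rule used both shares, so these values describe the set and test nothing. The median B6 share was 0.457 for DMC1 (quartiles 0.388 and 0.530) and 0.512 for H3K4me3 (0.460 and 0.563), and 68.2% of the sites had a lower share for DMC1 than for H3K4me3. The median difference, DMC1 share minus H3K4me3 share, was -0.049, was below 0 on 19 of 19 autosomes and ran from -0.071 on chromosome 16 to -0.030 on chromosome 8. It was -0.026 with the window of 0.4 to 0.6. At symmetric CAST sites it was -0.038, and the symmetric HUM value was the lower on 15 of 19 autosomes. The offset hardly moved with strength, between -0.036 and -0.059 in the 10 groups by H3K4me3, whereas its SD over sites was 0.127 in the weakest group and 0.0786 in the strongest.

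The window cuts the DMC1 share, so the offset was also read with DMC1 left free. Among HUM sites with an H3K4me3 share from 0.45 to 0.5, the median DMC1 share was 0.414, and from 0.5 to 0.55 it was 0.449. At H3K4me3 shares from 0.3 to 0.35 it was 0.205 and at 0.65 to 0.7 it was 0.708, a wider spread in DMC1 than in H3K4me3. Of HUM sites in the middle pair of groups, 81.5% and 83.5% were in the symmetric set, but only 34.5% and 45.2% in the outermost groups. Within the set the shares of the marks had a Spearman correlation of 0.295, which the window limits.

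**Figure D5:**
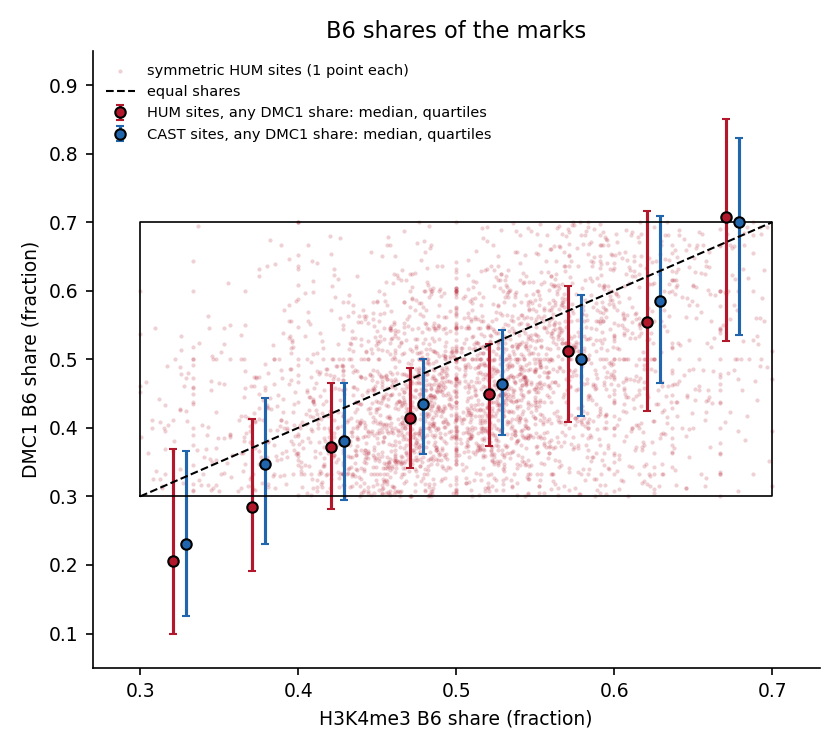
DMC1 B6 share against H3K4me3 B6 share as fractions, with 1 point per symmetric HUM site inside the boxed window; larger circles are medians and bars the quartiles of all HUM or CAST sites in 8 groups by H3K4me3 share, whatever their DMC1 share. The dashed line marks equal shares, and HUM medians lie under it up to an H3K4me3 share of 0.65, for example 0.449 at 0.5 to 0.55.

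The sites at the edges of the window are given as a description and do not measure how sharp it is. For DMC1, those just inside all had a share of exactly 0.3 or exactly 0.7. Whether such exact values go with few reads was not tested. Their DMC1 is listed beside that outside, and nothing is drawn from the difference. The 5 sites just inside at a DMC1 share of 0.3 had DMC1 of 17.8 to 30.5, and the 5 just outside, with shares of 0.298 to 0.30, had 66.7 to 894. At 0.7 those just inside had DMC1 of 11.9 to 31.8 and those just outside, at 0.701 to 0.703, had 21.0 to 73.3. For H3K4me3 the 5 just inside 0.3 had shares of 0.30 to 0.301 and H3K4me3 of 4.88 to 36.1, and the 5 outside had 0.286 to 0.297 and 2.11 to 11.5. At 0.7 the shares were 0.698 to 0.70 inside, with H3K4me3 of 4.48 to 10.4, and 0.704 to 0.707 outside, with 6.32 to 15.9. The strongest of those just outside, at chromosome 9 position 53613295 had DMC1 894 with a DMC1 share of 0.29995, and by DMC1 it would have come before the site in Klc1, the fifth of the set.

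Of the strongest sites by DMC1, the first lay 4.21 kb from Phtf2 (chromosome 5, 20754459), with DMC1 1202 and H3K4me3 57.4 and B6 shares of 0.416 for DMC1 and 0.501 for H3K4me3. The site in Kdm3b, which encodes a histone H3 lysine 9 demethylase (chromosome 18, 34810512), had DMC1 1044 and H3K4me3 58.6, and the one 158 kb from Cited2, a transcriptional co-regulator (chromosome 10, 17565264), had 941 and 58.5. The site inside Slc26a4, the anion exchanger pendrin (chromosome 12, 31533758), reached DMC1 947 on an H3K4me3 of only 34.1 and leaned toward B6 in both marks, at 0.622 and 0.560. The fifth and sixth lay inside Klc1, a kinesin light chain (chromosome 12, 111789969; DMC1 853, H3K4me3 39.4), and 42.9 kb from Cysltr2, a leukotriene receptor (chromosome 14, 72982811; DMC1 809, H3K4me3 61.0). All 6 had ratios of 13.3 to 27.8, above the median of 5.21, a direction that picking sites by DMC1 favours.

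The strongest H3K4me3 was found at other places. The highest value, 90.8, lay inside D430042O09Rik (chromosome 7, 125853836), with DMC1 545 and B6 shares of 0.554 for DMC1 and 0.563 for H3K4me3. It was followed by 82.5 inside Ppm1b, a protein phosphatase (chromosome 17, 84984997; DMC1 672), and by 81.8 at 19.4 kb from Rasl11b (chromosome 5, 74175932; DMC1 518). The fourth, with 81.0, lay in the major histocompatibility region of chromosome 17, 36.6 kb from Ier3 (35785125), where DMC1 was 237. The fifth, with 78.8, lay 1.52 kb from Casr, the calcium-sensing receptor (chromosome 16, 36489063; DMC1 396). The ratios of these 5 sites, 2.92 to 8.15, were all below those of the 6 strongest DMC1 sites. Picking by H3K4me3 here and by DMC1 there favours that order, so it is not a separate result.

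The ends of the ratio were taken among the 1580 sites above the median in summed ranks. The highest were 33.0 at 155 kb from Sash1 (chromosome 10, 9100631; DMC1 401, H3K4me3 12.2), 30.5 inside Btbd7 (chromosome 12, 102781334; DMC1 276, H3K4me3 9.06) and 28.1 inside Fam228a (chromosome 12, 4726615; DMC1 268, H3K4me3 9.53). These 3 combined high DMC1 with H3K4me3 under the median of the set. The lowest were 0.312 inside Hacd3, an enzyme of very long fatty acid synthesis (chromosome 9, 65002043; DMC1 14.5, H3K4me3 46.5), 0.479 inside Plcg2, a phospholipase of immune cell signalling (chromosome 8, 117536143; DMC1 25.7, H3K4me3 53.7), and 0.529 at 2.41 kb from Gpr139, a brain receptor (chromosome 7, 119186944; DMC1 18.8, H3K4me3 35.6). None of these 3 is listed as overlapping a PRDM9-independent H3K4me3 peak, since the rule removed such sites.

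In 91 sites both shares were within 0.02 of 0.5. The strongest of them lay inside Mdm1, which encodes a centriole protein (chromosome 10, 118160059; DMC1 750, shares 0.495 for DMC1 and 0.482 for H3K4me3), and inside Cfap20dc (chromosome 14, 8625227; DMC1 739, shares 0.509 and 0.517). They were followed by sites 15.8 kb from Pmfbp1, a gene of the sperm head-tail junction (chromosome 8, 109362041; DMC1 716, shares 0.517 and 0.512), and 91.0 kb from Ly86 (chromosome 13, 37510060; DMC1 709, shares 0.502 and 0.496). At these 4 sites H3K4me3 was 38.6 to 55.9.

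Some sites passed the window with shares that pointed in opposite directions. The shares of the marks were more than 0.2 apart at 259 sites (8.20%) and within 0.05 of each other at 1049 (33.2%). Among the 1320 sites above the median in both marks, the largest lead of DMC1 toward B6 was at 34.6 kb from Pdgfra, a growth factor receptor (chromosome 5, 75116675), with 0.695 for DMC1 and 0.337 for H3K4me3. It was followed by a site inside Cyp19a1, the aromatase that makes oestrogens (chromosome 9, 54233634; 0.674 and 0.382), and one 37.9 kb from Tshz1 (chromosome 18, 83973710; 0.667 and 0.406). The largest leads toward CAST were 0.875 kb from Rbm27 (chromosome 18, 42342417; 0.336 for DMC1 and 0.667 for H3K4me3), on chromosome 1 at 114143178, far from any protein-coding gene (0.317 and 0.639), and inside Pibf1 (chromosome 14, 99186590; 0.311 and 0.625).

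Along the chromosomes, which in the mouse have the centromere at the low end of the coordinates, the ratio was highest next to the centromere. In 5 equal parts from the centromere, symmetric HUM sites had median ratios of 6.35, 5.52, 4.73, 4.83 and 5.21. The 459 sites of the first part exceeded the rest by 0.32 on the log2 scale, by 0.35 at matched H3K4me3, and on 15 of 19 autosomes. The difference varied widely, from -0.61 on chromosome 14 to 1.05 on chromosome 15. Symmetric CAST sites showed the same direction, with 0.31 on the log2 scale and 18 of 19 autosomes, and ran from -0.19 on chromosome 16 to 0.86 on chromosome 10. The last part held the most sites, 822 or 26.0%, and the first the fewest, 14.5%. For symmetric CAST sites these were 22.6% and 15.8%. Over all HUM sites with both shares they were 26.5% and 14.9%, close to the values of the set. The median ratio there was also highest in the first part, at 7.08.

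Among the autosomes chromosome 3 stood apart, with a median ratio of 7.20 at its 166 symmetric HUM sites against 5.13 on the other autosomes, a log2 difference of 0.49, and the next highest chromosome, 12, had 5.79. Median DMC1 was 84.5 on chromosome 3 and 66.9 elsewhere, and median H3K4me3 was 13.4 on chromosome 3 and 14.3 elsewhere. Chromosome 3 was also the highest for symmetric CAST sites, at 7.49 against 6.16 elsewhere, but chromosome 12 was close to it with 7.30. At symmetric CAST sites median DMC1 was lower on chromosome 3, at 83.8 against 91.2 elsewhere. Their median H3K4me3 was 11.2 on chromosome 3 and 15.8 elsewhere. Chromosome 11 had the lowest ratio, 4.41, and the most symmetric HUM sites per length, 1.61 per Mb, against 1.05 per Mb on chromosome 3. The highest median DMC1 of any autosome, 101, and the highest H3K4me3, 18.7, were on chromosome 6.

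Symmetric HUM sites lay inside protein-coding genes in 58.7% of cases (1856 of 3160; exact interval 57.0% to 60.5%), against 54.98% at symmetric CAST sites (53.6% to 56.4%) and 53.9% over all autosomal sites. One-homologue HUM sites were closer, with 56.4% (53.4% to 59.4%) and an interval that overlaps, and partly skewed HUM sites had 54.8% (53.1% to 56.4%). These intervals carry counting error only. On single autosomes the symmetric HUM percentage ran from 52.2% on chromosome 8 to 65.5% on chromosome 14, with an SD of 3.71. The percentage was higher for symmetric HUM than for symmetric CAST sites on 15 of 19 autosomes. Sites inside and outside genes had nearly the same ratio, 5.23 and 5.18, and the sign of that difference varied, with inside higher on 12 of 19 autosomes. At symmetric CAST sites the ratio was 6.58 inside and 5.96 outside genes, with inside higher on 17 of 19. Whether the classes differ in this beyond the spread of autosomes was not tested.

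The nearest site of any class was at a median of 25.7 kb from a symmetric HUM site, and the nearest CAST site at 51.1 kb. Sites of the CAST allele within 5 kb, present at 142 of the symmetric HUM sites, went with a median ratio of 5.63 and DMC1 of 67.0, against 5.13 and 66.1 at the 830 sites with none within 100 kb. Between these the ratio did not follow distance. It was 5.12 at the 542 sites with the nearest at 5 to 20 kb and 5.22 at the 1646 sites with it at 20 to 100 kb. Median DMC1 was 74.1 and 67.0 there. The closest pairs of symmetric HUM sites were 953 bp apart in 0610010F05Rik (chromosome 11, 23590580 and 23591533; DMC1 124 and 190), 1327 bp apart near Kcnk3, a potassium channel (chromosome 5, 30578119 and 30579446; DMC1 212 and 200.9), 1720 bp apart in Mlh3, and 1981 bp apart in Myrfl (chromosome 10, 116798196 and 116800177; DMC1 37.5 and 23.2). All 8 sites of these pairs had a DMC1 share under 0.5, from 0.326 near Kcnk3 to 0.479 in Myrfl, as did 64.5% of the whole set. The most isolated site, on chromosome 5 at 79675740, was 772 kb from any other and had DMC1 48.0 and H3K4me3 9.62.

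The symmetric HUM sites inside genes fell in 1533 genes, 259 of them with at least 2. Auts2, a gene of brain development (chromosome 5, 131437333 to 132543220), and Npas3, a transcription factor gene of the brain (chromosome 12, 53248026 to 54072173), had 6 each, of 28 and 14 sites of all classes. In Auts2 their DMC1 was 39.1, 295, 117, 16.3, 15.03 and 78.1 in order of position, and in Npas3 it was 20.9, 20.3, 32.1, 74.0, 185 and 45.6. In both genes weak and strong sites lay side by side. Nckap5 (chromosome 1, strongest at 126282227 with DMC1 577), Trappc9, a subunit of a vesicle tethering complex (chromosome 15, 72883017; DMC1 310), and Agap1, a regulator of Arf proteins (chromosome 1, 89600927; DMC1 282), had 5 each. In Agap1 5 of the 8 sites of all classes were symmetric HUM sites. These are long genes, of 440 to 1106 kb.

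The counts of symmetric HUM sites in genes that act in meiosis and in the testis are read against their 12.9% of all sites in the table. Of 32 genes of break formation and repair, 3 held 4 symmetric HUM sites of 26 sites in all. A pair was inside Mlh3, which acts in crossover formation (chromosome 12, 85255347 and 85257067), with DMC1 182 and 177 but H3K4me3 29.3 and 10.3. Another was in Dmc1 itself (chromosome 15, 79588477; DMC1 55.4, H3K4me3 51.1), where the ratio of 1.08 was low. Among 15 axis and synaptonemal complex genes, Syce3, a central element protein, was the only one with a symmetric HUM site (chromosome 15, 89395856; DMC1 20.7), 1 of 7 sites in that list. The spermatid list gave 1 each in Cfap54, of the ciliary axoneme (chromosome 10, 93063952; DMC1 159), and Spata16, of acrosome formation (chromosome 3, 26844131; DMC1 118), of 14 sites in all. The Sertoli and Leydig list gave 1 of 2 sites, in Gata4 (chromosome 14, 63228527; DMC1 157). These counts are small and no test was made. The 14 autosomal long neuronal genes held 21, in 12 genes, of 162 sites in all. The strongest of these lay in Ctnna3, an alpha-catenin (chromosome 10, 63671994; DMC1 506, H3K4me3 19.1, shares 0.325 for DMC1 and 0.456 for H3K4me3). The median ratio over the 21 was 4.67, below the median of 5.21 over all symmetric HUM sites.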

How the data were processed

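BWA with the mm10 build was used for both marks according to the submitters' processing notes, as version 0.7.15 for H3K4me3 and with no version named for DMC1. Per the file headers, the authors' DMC1 signal is the intensity their peak caller gave each DMC1 peak, and the deposited H3K4me3 signal is an enrichment estimated at the same place. The deposited B6 fraction, given for either mark, relates the B6 homologue's signal to the total of both. The H3K4me3 reads are credited to Li and colleagues in the file headers, and it is not stated whether they are those of this series' H3K4me3 library. MNase-seq data were not used. How signals were scaled to depth is not stated, so no counting error could be set on a site. Intervals on percentages of sites are exact Clopper-Pearson ones for counting error only. At 37.2% of the symmetric HUM sites the H3K4me3 value repeated that of an earlier line of the table.

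Values were compared with Python 3.11.15, pandas 2.3.3, numpy 2.4.6 and scipy 1.17.1 as medians on the log2 scale with no pseudocount. Matching used 20 equal bins of H3K4me3 with at least 5 sites of each class. Steps were tested on simulated data. Gene positions came from RefSeq, GRCm38.p6, with 20661 autosomal protein-coding genes, without exons, so exon and intron were not assigned. Calls of 2-fold are against the median autosomal ratio of 6.05. Named sites are the extremes of each mark, of the ratio, of the balance and gap of shares, of spacing and of sites per gene, plus sites in 5 gene lists. The set and the lists were chosen with earlier results of these data known. A site in 1 gene of these lists is not reported here.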

Additional observations from a re-analysis of the deposited data

How the results depend on the processing

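Alternatives were other share windows, sites on PRDM9-independent peaks kept, repeated H3K4me3 values or weak DMC1 left out, means, a pseudocount, matching on H3K4me3 and 5 kb gene flanks. Of 61 recomputed values none changed sign, and 53 stayed within the SD over autosomes (counts within 1.5 times, percentages within their interval). Among the 61 are 5 counts of sites and 6 percentages inside genes, which could not change sign. With the window of 0.4 to 0.6 there were 1563 sites, the ratio difference from partly skewed HUM sites was -0.018 and the share gap -0.026; with 0.2 to 0.8 that ratio difference was -0.27. Without repeated H3K4me3 values 1983 sites were left. The Spearman correlation was 0.756 with sites on independent peaks and 0.757 without the sites in the lowest 25% of autosomal DMC1, and 64.6% of sites lay within 5 kb of a gene body. The cause of these shifts was not tested beyond the construction of each alternative. The log2 DMC1 difference from symmetric CAST sites ranged from -0.44 to -0.24 and that of H3K4me3 from -0.12 to -0.025, both smallest without those weak sites. The log2 ratio difference from symmetric CAST sites ranged from -0.27 to -0.19 and that from one-homologue HUM sites from -1.09 to -0.82. No paired analysis was possible because each assay has 1 library. Leaving out a replicate was not possible for the same reason. Read depth, which is unknown, limits the precision of shares at weak sites.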
